A study of Homo sapiens with 6 samples.

Results

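The nuclear genes of the mitochondrial respiratory chain and of ATP synthase were described in LX-2, an established human hepatic stellate cell line, after knockdown of ADAMTS12. Members were the rows of the deposited table whose symbols begin with NDUF followed by A, B, C, S or V and a digit, are SDHA to SDHD, or begin with UQCR, with COX followed by a digit from 4 to 8, or with ATP5. Of 242 such rows, 150 were left out for a pseudogene symbol (3 of them with a mean of at least 10) and 9 others for a mean over the libraries below 10. The remaining 83 members stand among 15637 genes with a mean of at least 10 and 60669 rows in all. They comprise 38 genes of complex I, 4 of complex II, 9 of complex III, 14 of complex IV and 18 of complex V. Of these, 77 encode subunits and 6 share only the symbol pattern or a related role: the antisense RNAs NDUFB2-AS1 and NDUFV2-AS1, the UQCRH copy UQCRHL, the assembly-related COX7A2L, the NDUFA4 paralogue NDUFA4L2, and ATP5IF1, an inhibitor of ATP synthase. NDUFA4 and NDUFA4L2 are counted with complex IV, where the NDUFA4 protein is now placed. Just inside the minimum lay NDUFA7 (mean 13.3) and NDUFA4L2 (16.5), and just outside it lay COX6B2 (6.5), an isoform known from testis.

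Cells given an siRNA against ADAMTS12 (siADAMTS12) were compared with cells given a control siRNA (siCTL), with 3 poly(A) RNA libraries per group. All were unmodified LX-2 cells (labelled as wild type and as activated stellate cells), grown in serum-containing medium and transfected with lipid reagent for 48 h. The siRNA is the only difference between the groups that the labels state, and a single siRNA sequence stands for the knockdown. Whether the libraries of a group come from separate cultures is not stated in the labels, and the p-values therefore speak only of the spread among these 6 libraries, part of which may be technical.

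The respiratory chain passes electrons from NADH (complex I) and succinate (complex II) through ubiquinone, complex III and cytochrome c to oxygen at complex IV, and complex V (ATP synthase) uses the proton gradient that this builds. Complex II is the member of this chain that is made of nuclear-encoded subunits alone, and it is also an enzyme of the citric acid cycle. The other complexes join nuclear-encoded subunits, imported from the cytosol, with a few encoded in mitochondrial DNA.

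Levels below are deposited normalized counts, a library-scaled read count per gene given as whole numbers. Log2 fold changes are siADAMTS12 over siCTL on the log2(value + 1) scale with a moderated standard error (SE), and adjusted p-values are from limma with Benjamini-Hochberg adjustment over all 15637 genes, at a threshold of 0.05. An exact permutation test of 3 against 3 libraries cannot go below p = 0.1, which each of the genes past the threshold reached.

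ADAMTS12 itself had 4083, 3449 and 3687 normalized counts in siADAMTS12 libraries, against 13709, 12235 and 13423 in siCTL libraries, which left 28.5% of the siCTL mean. Deposited values summed to 31.0 ± 0.393 M (1e6) per siADAMTS12 library and 33.8 ± 0.276 M per siCTL library (SD, n = 3 each; exact 2-sided permutation p = 0.1). Of 10 stellate and fibroblast markers, 8 could be tested and 4 of these fell (PDGFRB, THY1, VIM and PDGFRA), none rose and 1 of the 10 was listed at 0. The share over all genes tested was 15.5% for falls and 11.5% for rises. COL1A1, COL1A2, COL3A1 and ACTA2 did not pass. The summed level of all 10 markers was 264943 to 282968 in siADAMTS12 libraries and 342832 to 383088 in siCTL libraries. Most of that sum was VIM (mean 137566 in siADAMTS12 and 201651 in siCTL libraries) and COL1A1 (100885 in siADAMTS12 and 114287 in siCTL libraries). Hepatocyte markers summed to 1 to 2 in siADAMTS12 libraries and 0 to 1 in siCTL libraries. Of the cholangiocyte markers, KRT7 and SOX9 were present in both groups and neither passed the test. KRT19 and EPCAM lay below the minimum, at means of 5.67 and 1.67 over the libraries. The list summed to 1733 to 2071 in siADAMTS12 and 1874 to 2232 in siCTL libraries, most of it SOX9. Leukocyte markers summed to 104 to 126 in siADAMTS12 and 101 to 122 in siCTL libraries, nearly all of it CD14. Endothelial markers summed to 15 to 24 in siADAMTS12 and 28 to 39 in siCTL libraries. The part of any shift in cell state in the results below was not tested.

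Few respiratory chain genes passed the test: 4 of 83 members rose (NDUFA1, NDUFS1, COX4I1 and ATP5MC1) and 7 fell (NDUFB10, NDUFB9, NDUFA5, SDHB, SDHC, SDHD and UQCRH). Over all genes tested, 11.5% rose and 15.5% fell, 27% in either direction, so the 11 called members (13.3%) are a smaller share than that background. The groups did not overlap in 19 of 83 members, or 22.9%, where 40.9% of all genes showed no overlap. The median log2 fold change was 0.02 over the members and 0.005 over all genes, and 3 members (3.61%) moved by more than 0.5 in either direction, against 16.0% of all genes. Summed over the 83 members, siADAMTS12 libraries had 191740 ± 6695 normalized counts and siCTL libraries 190971 ± 5854 (SD, n = 3 each). As a share of the library total, which differed between groups, this was 0.619 ± 0.026% in siADAMTS12 and 0.566 ± 0.022% in siCTL libraries, so the comparison depends on the scaling.

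With the replicate number as a block, 7 members rose and 7 fell, with a background of 15.5% and 19.6%. The 3 gained were ATP5IF1 (log2 fold change 0.27, adjusted p = 0.00747), NDUFS5 (0.14, adjusted p = 0.0462) and NDUFA3 (0.20, adjusted p = 0.0492). ATP5IF1 shows what the block takes out: it had 1325, 2024 and 1872 normalized counts in siADAMTS12 libraries 1 to 3 and 1023, 1644 and 1692 in siCTL libraries 1 to 3. Its groups overlapped, replicate 1 was the lowest of both groups, and within each replicate number the siADAMTS12 library was the higher. Without the block its adjusted p was 0.319.

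**Figure D1:**
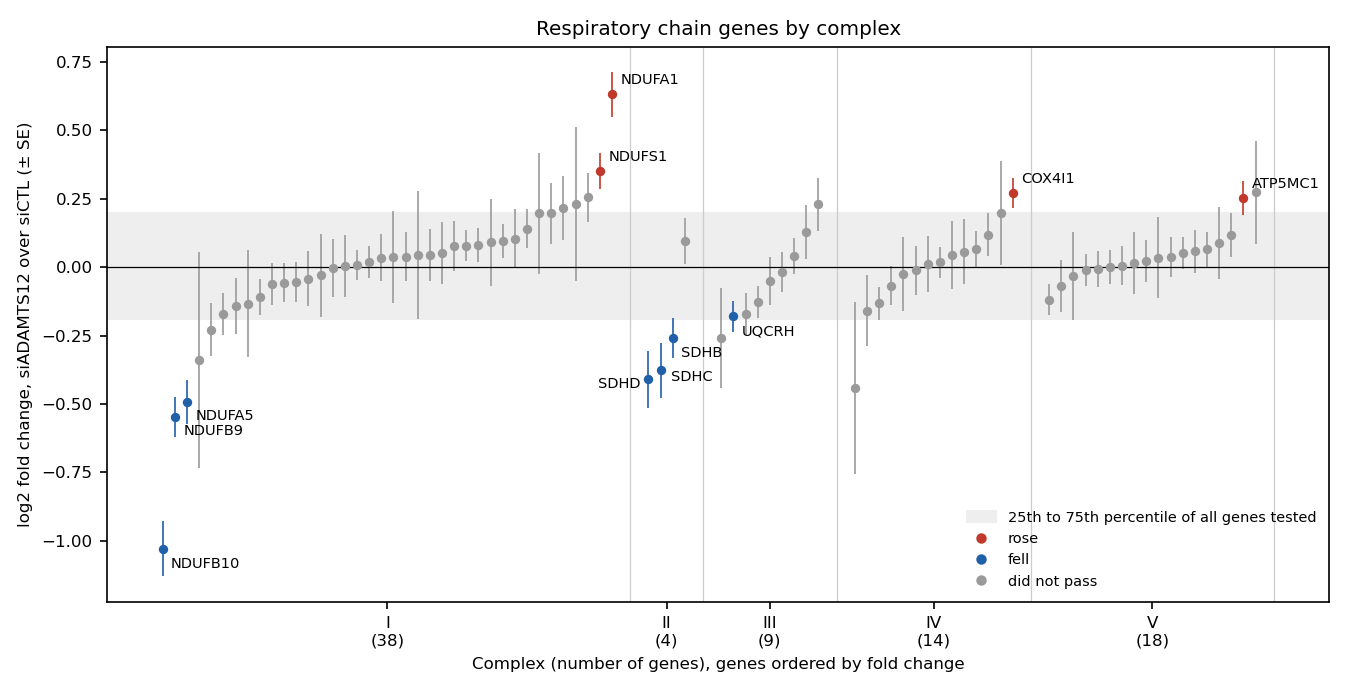
Log2 fold change, siADAMTS12 over siCTL, of the 83 members by complex, with SE bars from limma over 3 libraries per group; red points rose, blue points fell, grey points did not pass an adjusted p of 0.05, and the grey band spans the 25th to 75th percentile of all 15637 genes. Most points lie within the band, NDUFB10 is the lowest at -1.03, NDUFA1 the highest at 0.63, and 3 of the 4 points of complex II are blue.

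Complex I, the NADH dehydrogenase, held 5 of the 11 called members: NDUFB10, NDUFB9 and NDUFA5 fell and NDUFA1 and NDUFS1 rose. NDUFB10 encodes an accessory subunit of the membrane arm (ENSG00000140990, chr16:1959508-1961975, plus strand, GENCODE 29 on GRCh38). It had 757, 848 and 962 normalized counts in siADAMTS12 libraries, against 1540, 1901 and 1795 in siCTL libraries. All siADAMTS12 libraries lay far below all siCTL libraries, and the siADAMTS12 mean was 49.0% of the siCTL mean (log2 fold change -1.03 ± 0.10, adjusted p = 2.24e-05).

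NDUFB9, another accessory subunit of the membrane arm (ENSG00000147684), had 1522, 1352 and 1417 normalized counts in siADAMTS12 libraries, against 2145, 2200 and 1926 in siCTL libraries. The groups were well apart (log2 fold change -0.55 ± 0.07, adjusted p = 0.000234). Its transcript shares 26.0% of its bases with exons of other genes on the opposite strand. The neighbour on that strand, TATDN1, had 333, 391 and 397 normalized counts in siADAMTS12 libraries and 468, 525 and 535 in siCTL libraries (log2 fold change -0.45, adjusted p = 0.00627). The libraries are stranded and the strand setting of the counting is not given in the sources used here, so reads of this pair cannot be told apart with certainty.

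NDUFA5, an accessory subunit of the arm that reaches into the matrix (ENSG00000128609, chr7:123536997-123558255, minus strand), had 917, 1072 and 922 normalized counts in siADAMTS12 libraries, against 1349, 1294 and 1444 in siCTL libraries. All siADAMTS12 values were the lower ones (log2 fold change -0.49 ± 0.08, adjusted p = 0.00093).

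NDUFA1, a small membrane-anchored subunit needed to assemble the membrane arm (ENSG00000125356, chrX:119871487-119876662, plus strand), went the other way, with 2063, 2092 and 1801 normalized counts in siADAMTS12 libraries and 1209, 1397 and 1238 in siCTL libraries. The lowest siADAMTS12 library lay well above the highest siCTL library (log2 fold change 0.63 ± 0.08, adjusted p = 0.000166). Its transcript shares 44.5% of its bases with RNF113A on the opposite strand. RNF113A had 433, 532 and 514 normalized counts in siADAMTS12 libraries and 409, 409 and 516 in siCTL libraries, values that overlap and lie below those of NDUFA1 (log2 fold change 0.15, adjusted p = 0.368).

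NDUFS1 is the largest core subunit and carries iron-sulphur clusters that take electrons onwards from NADH (ENSG00000023228, chr2:206114817-206159603, minus strand). It had 3445, 3503 and 3140 normalized counts in siADAMTS12 libraries, against 2778, 2507 and 2625 in siCTL libraries. The groups did not overlap (log2 fold change 0.35 ± 0.07, adjusted p = 0.00249).

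The other 33 complex I members did not pass the test, and their log2 fold changes ran from -0.34 to 0.25 with a median of 0.04. The widest of these, NDUFA7, had 13, 7 and 15 normalized counts in siADAMTS12 libraries and 10, 14 and 21 in siCTL libraries. NDUFV1, the core subunit that binds NADH and the member of complex I with the highest mean, had 6554, 5629 and 5702 normalized counts in siADAMTS12 libraries and 6632, 6318 and 5700 in siCTL libraries, which overlap (log2 fold change -0.06). NDUFS7, a core iron-sulphur subunit close to the ubiquinone site, came nearest to the threshold, at 1545, 1308 and 1550 in siADAMTS12 libraries and 1181, 1356 and 1152 in siCTL libraries. Its siADAMTS12 replicate 2 fell inside the siCTL range (log2 fold change 0.25, adjusted p = 0.0534). Leaving that library out gave 0.34 with an adjusted p of 0.0147, and leaving out siCTL replicate 2, the highest of its group, gave 0.33 with an adjusted p of 0.0283. It also passed with a minimum mean of 50 (adjusted p = 0.0487), quantile normalization (0.0414) and columns rescaled to the same total (0.0106) or upper quartile (0.0286). The summed level of complex I was 58240 ± 894 normalized counts in siADAMTS12 and 57722 ± 1804 in siCTL libraries (SD, n = 3 each).

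**Figure D2:**
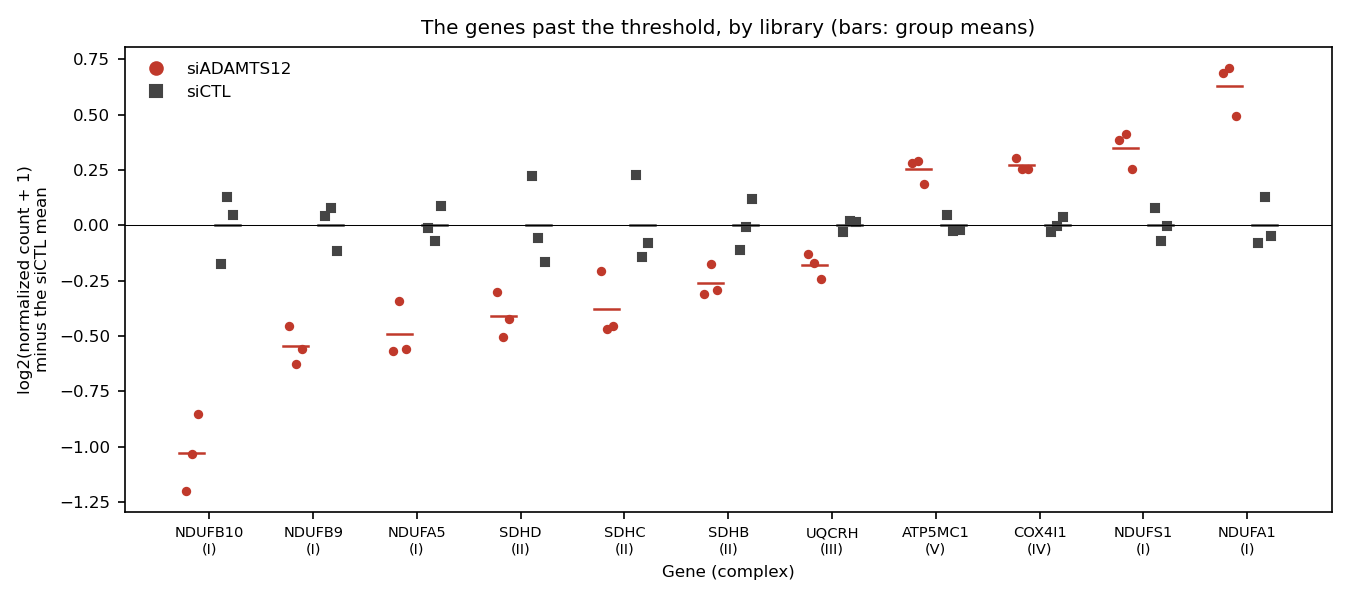
The 11 members past the threshold, each library as log2(normalized count + 1) minus the siCTL mean of that gene; siADAMTS12 libraries are red circles, siCTL libraries grey squares, bars are group means, and the complex stands in brackets. For each of the 11 genes the siADAMTS12 libraries lie wholly on one side of the siCTL libraries, with the widest gap in NDUFB10 and the narrowest in SDHB, SDHC, SDHD and UQCRH.

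In complex II, succinate dehydrogenase, 3 of 4 subunit genes fell, by log2 values from -0.26 to -0.41, and the median over the complex was -0.32. SDHB encodes the iron-sulphur subunit (ENSG00000117118, chr1:17018722-17054170, minus strand). It had 2241, 2460 and 2267 normalized counts in siADAMTS12 libraries, against 2570, 2766 and 3015 in siCTL libraries. The groups were close without overlap (log2 fold change -0.26 ± 0.07, adjusted p = 0.0205).

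SDHC and SDHD encode the pair of membrane anchors that bind ubiquinone. SDHC (ENSG00000143252, chr1:161314257-161375340, plus strand) had 2051, 1715 and 1727 normalized counts in siADAMTS12 libraries, against 2770, 2143 and 2243 in siCTL libraries (log2 fold change -0.38 ± 0.10, adjusted p = 0.0174). SDHD (ENSG00000204370, chr11:112086773-112120013, plus strand) had 699, 607 and 642 in siADAMTS12 libraries, against 1006, 829 and 767 in siCTL libraries (log2 fold change -0.41 ± 0.10, adjusted p = 0.0125). In both genes replicate 1 was the highest library of each group, and the siADAMTS12 libraries stayed below the siCTL libraries.

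SDHA, the flavoprotein that oxidises succinate (ENSG00000073578, chr5:218241-256700, plus strand), did not pass the test, with 568, 577 and 631 normalized counts in siADAMTS12 libraries and 515, 578 and 570 in siCTL libraries. These ranges overlap (log2 fold change 0.10 ± 0.08, adjusted p = 0.443). SDHA has near-identical pseudogene copies, among which reads can be split: SDHAP1 averaged 452 ± 63.1 in siADAMTS12 and 412 ± 4.93 in siCTL libraries, SDHAP3 averaged 672 ± 35.4 in siADAMTS12 and 560 ± 34.3 in siCTL libraries, and SDHAP2 was listed at 0 in all 6. SDHAP3 itself passed the threshold (log2 fold change 0.26, adjusted p = 0.0341), though not when any one library other than siCTL replicate 1 was left out (adjusted p from 0.0617 to 0.110). The level of SDHA is therefore uncertain.

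Summed over its 4 genes, complex II had 5559, 5359 and 5267 normalized counts in siADAMTS12 libraries, against 6861, 6316 and 6595 in siCTL libraries. These sums did not overlap and stood at a ratio of 0.819, where the sums of the other complexes stood at ratios from 0.963 to 1.03. As a share of the library total, complex II made up 0.0174 ± 0.0005% in siADAMTS12 and 0.0195 ± 0.0008% in siCTL libraries, a smaller gap. In bulk RNA, fewer cells of a type and less RNA per cell cannot be told apart.

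The complex II calls depended on the processing. With all columns rescaled to the same total, none of the 3 passed (adjusted p = 0.0630 for SDHD, 0.0875 for SDHC and 0.147 for SDHB), nor did any without the intensity trend (0.0590, 0.0887 and 0.0774 for SDHD, SDHC and SDHB). SDHC also missed the threshold without siADAMTS12 replicate 2 (adjusted p = 0.0517), siADAMTS12 replicate 3 (0.0679) or siCTL replicate 1 (0.0573), and SDHB without siADAMTS12 replicate 1 (0.0663), siADAMTS12 replicate 3 (0.0735), siCTL replicate 2 (0.0528) or siCTL replicate 3 (0.0878), whereas SDHD passed without any one library.

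Complex III, which passes electrons from ubiquinol to cytochrome c, had 1 fall and no rise among its 9 members. UQCRH, the acidic hinge protein beside cytochrome c1 (ENSG00000173660, chr1:46303631-46316776, plus strand), had 3365, 3265 and 3110 normalized counts in siADAMTS12 libraries, against 3598, 3723 and 3710 in siCTL libraries. The gap between the groups was small (log2 fold change -0.18 ± 0.06, adjusted p = 0.0387). Its near-identical copy UQCRHL, at 169, 196 and 153 in siADAMTS12 and 187, 280 and 166 in siCTL libraries, overlapped between groups (adjusted p = 0.329), and reads could be split between the copies. The UQCRH call was lost in 11 of 14 alternative settings: without any one library the adjusted p lay between 0.0502 and 0.150, and with columns rescaled to the same total it was 0.470.

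UQCRC1, a core protein of complex III and the member of it with the highest mean, had 6519, 6420 and 6127 normalized counts in siADAMTS12 libraries and 7165, 6958 and 6704 in siCTL libraries. These did not overlap, but the difference of -0.13 on the log2 scale did not pass. The 8 members past no threshold ran from -0.26 (UQCRHL) to 0.23 (UQCR11), and the complex summed to 23285 ± 945 in siADAMTS12 and 24174 ± 375 in siCTL libraries.

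Complex IV, cytochrome c oxidase, had 1 rise and no fall among 14 members. COX4I1, the widely expressed form of subunit 4 (ENSG00000131143, chr16:85798633-85807044, plus strand), had 5509, 5313 and 5325 normalized counts in siADAMTS12 libraries, against 4364, 4443 and 4576 in siCTL libraries. Both groups were tight and far from overlapping (log2 fold change 0.27 ± 0.06, adjusted p = 0.0038). Its paralogue COX4I2, and the tissue-restricted COX6A2, COX7B2 and COX8C, were listed at 0 in every library.

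COX7A1, the heart and muscle form of subunit 7a, had 104, 86 and 101 normalized counts in siADAMTS12 and 73, 73 and 112 in siCTL libraries, and its widely expressed counterpart COX7A2 had 2282, 1991 and 2320 in siADAMTS12 and 2341, 2347 and 2213 in siCTL libraries. NDUFA4L2, known as a hypoxia-induced paralogue, had 14, 18 and 10 in siADAMTS12 and 17, 22 and 18 in siCTL libraries, and NDUFA4 had 2272, 1861 and 2094 in siADAMTS12 and 2305, 2078 and 1896 in siCTL libraries. Both pairs overlapped between groups. The log2 ratio of COX7A1 to COX7A2 was -4.49 ± 0.04 in siADAMTS12 and -4.75 ± 0.40 in siCTL libraries (exact 2-sided permutation p = 0.4, 0.5 adjusted over 5 ratios). For NDUFA4L2 to NDUFA4 it was -7.14 ± 0.49 in siADAMTS12 and -6.71 ± 0.26 in siCTL libraries (exact permutation p = 0.3, adjusted 0.5). The 13 uncalled members of complex IV ran from -0.44 (NDUFA4L2) to 0.20 (COX7A1), and the complex summed to 32438 ± 1354 in siADAMTS12 and 31577 ± 1173 in siCTL libraries.

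Complex V had 1 rise and no fall among 18 members. The 3 genes ATP5MC1, ATP5MC2 and ATP5MC3 encode the same mature subunit c, which forms the rotor ring, behind different import sequences. ATP5MC1 (ENSG00000159199, chr17:48892765-48895871, plus strand) had 2163, 2181 and 2030 normalized counts in siADAMTS12 libraries, against 1841, 1749 and 1758 in siCTL libraries. It did not overlap between groups (log2 fold change 0.25 ± 0.06, adjusted p = 0.0101).

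ATP5MC2 had 4609, 4310 and 3874 normalized counts in siADAMTS12 and 4362, 4321 and 4040 in siCTL libraries, and ATP5MC3 had 3034, 2792 and 2858 in siADAMTS12 and 3089, 2909 and 2731 in siCTL libraries. Both overlapped, with log2 fold changes of 0.01 and -0.01. The log2 ratio of ATP5MC1 to ATP5MC2 was -1.0 ± 0.08 in siADAMTS12 and -1.25 ± 0.05 in siCTL libraries, a difference of 0.25 (exact permutation p = 0.1, the smallest possible, adjusted 0.25). That of ATP5MC1 to ATP5MC3 was -0.45 ± 0.08 in siADAMTS12 and -0.71 ± 0.06 in siCTL libraries (exact permutation p = 0.1, adjusted 0.25), and that of ATP5MC2 to ATP5MC3 differed by 0.01 (exact permutation p = 0.9). Both ratios with ATP5MC1 were higher in every siADAMTS12 library than in any siCTL library, and 3 libraries per group cannot pass the threshold in this test.

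ATP5F1B, the catalytic beta subunit, had the highest level of all members, with 20335, 17799 and 17588 normalized counts in siADAMTS12 and 18695, 16864 and 15814 in siCTL libraries. These overlapped (log2 fold change 0.12, adjusted p = 0.316), and the gene passed only under quantile normalization (0.30, adjusted p = 0.0202) and with columns rescaled to the same total (0.24, adjusted p = 0.0448) among the 14 alternatives. The 17 uncalled members ran from -0.12 (ATP5F1C, the gamma subunit) to 0.27 (ATP5IF1), and the complex summed to 72381 ± 3636 in siADAMTS12 and 70907 ± 3391 in siCTL libraries.

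A sequence match to the siRNA was looked for in the members, since the guide strand of an siRNA can pair with other transcripts through its seed, bases 2 to 8, in the way of a microRNA. The strands below are given because every search used them, and the 30-base windows because they hold the match in members that the results turn on. Capitals mark the seed in the guide and its complement elsewhere. Windows are from GENCODE 29 transcripts on GRCh38, in the sense of the transcript: NDUFB10 and NDUFA5 in coding sequence (chr16:1961543-1961572, plus strand, and chr7:123542170-123542199, minus strand), SDHC, NDUFS1 and NDUFA10 in the 3′ UTR (chr1:161363304-161363333, plus strand; chr2:206119141-206119170, minus strand; chr2:239958178-239958207, minus strand).
siADAMTS12 sense: gccaaaguuugGAGGGAAa
siADAMTS12 guide: uUUCCCUCcaaacuuuggc
NDUFB10: gcctgtcagcaGAGGGAAggacagaactac
NDUFA5: gcaagaaaaatGAGGGAAtggaaactatgg
SDHC: acctttaccagGAGGGAAacagttctccta
NDUFS1: tcatagactatGAGGGAAagccatgcctaa
NDUFA10: aaataggggtgGAGGGAAagctgccatggc

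The 3′ UTRs of the members were short. Their median was 222 bases in the 80 members searched (all but NDUFB2-AS1, NDUFV2-AS1 and ATP5MF). It was 1140 bases in all 12626 genes searched and 1668 bases in all genes that fell. Shares of genes with a match are not adjusted for these lengths. The match to the seed stood in the 3′ UTR of 5 members (6.25%), namely SDHC, NDUFS1, NDUFS6, NDUFA9 and NDUFA10, against 15.6% of all genes searched and 30.7% of all genes that fell. Of those 5, SDHC fell, NDUFS1 rose, and NDUFS6, NDUFA9 and NDUFA10 had log2 fold changes of 0.05, 0.04 and 0.02.

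A search of whole transcripts was added after these values were seen. It found the match in 12 members (15%), against 29.9% of all genes searched and 48.6% of all genes that fell. In 3 members it stood in the coding sequence, and these were NDUFB10, NDUFB9 and NDUFA5, the 3 members of complex I that fell. Aligned on the seed, their sites equal the sense strand at 10, 13 and 11 of 19 bases, of which the 7 of the match are equal by construction. The sites of the other members with a match, none of which but SDHC fell, equal it at 8 (COX7A2L) to 12 (NDUFA10) bases. In 4 members it stood in the 5′ UTR alone, and none of these passed the test. Of the 68 members with no match, 3 fell and 3 rose, the falls being SDHB, SDHD and UQCRH.

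Over all genes searched, 35.8% of 1975 genes with a match in the 3′ UTR fell. The share was 25.5% of 1438 genes with a match in the coding sequence but not the 3′ UTR, 13.1% of 359 with one in the 5′ UTR alone and 13.4% of 8854 with none. The median log2 fold changes of these groups were -0.14, -0.06, -0.02 and 0.02 in the same order. These groups were not matched for length, and whether the guide acts at any of these sites was not tested.

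**Figure D3:**
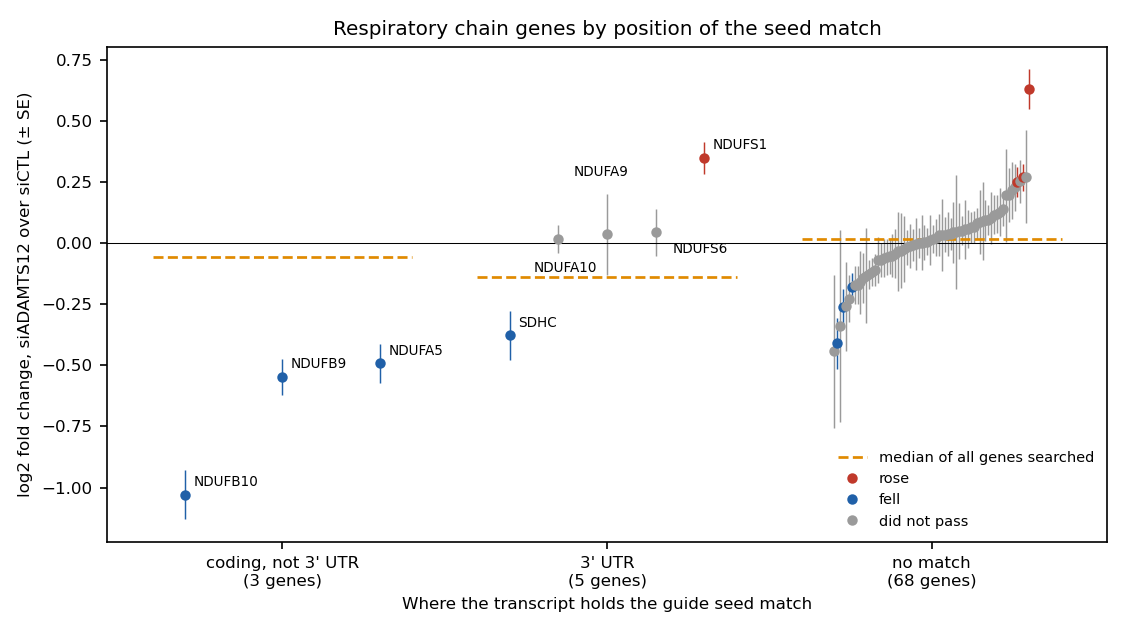
Log2 fold change, siADAMTS12 over siCTL, with SE bars over 3 libraries per group, of members with the match to guide bases 2 to 8 in the coding sequence (3 genes), with it in the 3′ UTR (5 genes) and with none (68 genes); red rose, blue fell, grey did not pass, and the dashed line is the median of all genes searched of that kind. The 3 genes with a coding match lie between -1.03 and -0.49, below the dashed line at -0.06, while those with a 3′ UTR match lie between -0.38 and 0.35.

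Levels compared between genes were taken per kilobase of 1 chosen transcript. Among equally ranked transcripts of a gene, the one with the longest 3′ UTR was taken, which can lower the level per kb. In SDHC 12907 of 13566 bases were 3′ UTR, and in NDUFA9 7209 of 8363. ATP5F1B was highest, at 10100 normalized counts per kb in siADAMTS12 and 9312 in siCTL libraries, and the median over the 77 subunit genes was 1486 in siADAMTS12 and 1655 in siCTL libraries. By complex, the median level per kb in siADAMTS12 and siCTL libraries was 1098 and 1077 in complex I, 349 and 417 in complex II, 1309 and 1383 in complex III, 2231 and 2206 in complex IV, and 2385 and 2503 in complex V. At the low end, NDUFA7, NDUFA9, NDUFV2 and NDUFA13 had 19.4, 32.1, 39.8 and 58.9 per kb in siADAMTS12 and 25, 30.8, 43.7 and 55.8 in siCTL libraries. NDUFV2 is a core subunit with an iron-sulphur cluster, and NDUFV1, its partner in the NADH-oxidising module, had 2358 per kb in siADAMTS12 and 2459 in siCTL libraries.

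Of the low genes, 3 share much of their transcript with another annotated gene on the same strand. More than 40% was shared in 7 subunit genes: NDUFV2 (82.9%), NDUFA7 (75.9%), NDUFB8 (71.7%), ATP5PO (70.3%), NDUFA11 (67.0%), ATP5MF (46.2%) and NDUFA13 (44.1%). The median level of these 7 was 161 per kb in siADAMTS12 and 150 in siCTL libraries, against 1750 in siADAMTS12 and 1741 in siCTL libraries for the other 70 subunit genes. The genes that overlap NDUFV2, NDUFB8, NDUFA11 and ATP5PO were listed at a mean of 0. ATP5MF kept a high level (4096 per kb in siADAMTS12 and 4061 in siCTL libraries) despite its overlap. NDUFA9 had a low one with 11.8% shared, per kb of a transcript that is mostly 3′ UTR. None of the 7 was among the called members. How the counting treated reads that fit more than 1 gene is not given in the sources used here and its part in these levels was not tested, so the levels of these 7 genes are uncertain.

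**Figure D4:**
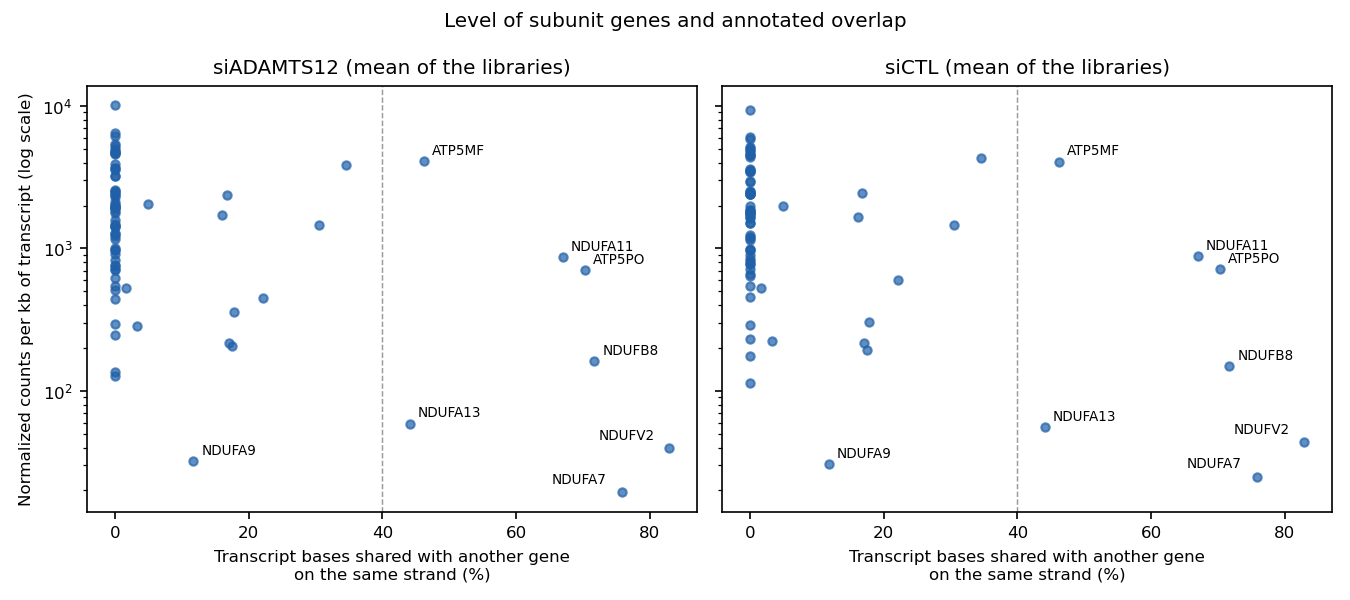
Mean level of the 77 subunit genes in normalized counts per kb of transcript (log axis) against the share of transcript bases that lie in exons of another gene on the same strand, in siADAMTS12 (left) and siCTL (right) libraries; the dashed line marks 40%. Of the 7 genes right of the line, ATP5MF alone is above the median of the other 70 genes and NDUFV2, NDUFA7 and NDUFA13 are below 100 in both groups.

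Promoters, from 250 bases before to 50 after the gene start in RefSeq on GRCh38.p14, were found for 67 of the 83 members and searched on both strands for 3 motifs known from genes of mitochondrial proteins. The motif of nuclear respiratory factor 1 (NRF1) stood in 16 members (23.9%), against 6.28% of 27305 promoters. The core of ETS factors such as GABPA, CCGGAAG, stood in 20 (29.9%), against 10.7%, and the YY1 motif in 7 (10.4%), against 1.28%. The 27305 promoters outnumber the 15637 genes tested, so unlike the members they were not limited to genes with a mean of at least 10. The shares therefore do not compare members with other expressed genes, for which motif shares were not computed. At least 1 of these motifs stood in 36 of the 67. Of 9 called members with a promoter entry, 6 held the ETS core, both in genes that rose (NDUFA1, NDUFS1, COX4I1) and in genes that fell (SDHB, SDHD, UQCRH), 1 held the NRF1 motif and 1 the YY1 motif. A match is a description of these letters in this window.

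The genes around the complexes were followed in 11 lists with 187 genes tested, of which 13 rose (6.95%) and 21 fell (11.2%), against 11.5% and 15.5% of all genes. With the replicate block 20 rose (10.7%) and 27 fell (14.4%), against 15.5% and 19.6% of all genes. Without siCTL replicate 3 the risers numbered 8. Few assembly factors passed the test. For complex I, 1 of 16 rose and none fell, the riser being TMEM126B (1451 ± 81.6 in siADAMTS12 and 1151 ± 32.5 in siCTL libraries, log2 fold change 0.33, adjusted p = 0.00384). NDUFAF8 also rose when siADAMTS12 replicate 2 (adjusted p = 0.0144) or siCTL replicate 2 (0.0425) was left out. For complex II, 1 of 4 rose and none fell: SDHAF1, which helps to fit the iron-sulphur clusters of SDHB, had 419, 337 and 423 normalized counts in siADAMTS12 and 278, 329 and 293 in siCTL libraries (log2 fold change 0.38, adjusted p = 0.0286). That call was lost without siADAMTS12 replicate 1 or 3 or siCTL replicate 1 or 3 (adjusted p from 0.0821 to 0.113) and without the intensity trend (0.0683). SDHAF2, SDHAF3 and SDHAF4 had log2 fold changes of 0.21, 0.37 and 0.28 and did not pass, though SDHAF3 did with the replicate block (adjusted p = 0.0331). The median of this list was thus 0.32, beside -0.32 for the complex II subunits.

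For complex III, 1 of 6 assembly factors fell, LYRM7 (958 ± 16.1 in siADAMTS12 and 1202 ± 43.4 in siCTL libraries, log2 fold change -0.33, adjusted p = 0.00349), which escorts the Rieske iron-sulphur protein. For complex IV, 1 of 24 rose (TACO1, log2 fold change 0.23, adjusted p = 0.025) and 2 fell, COA4 (-0.48, adjusted p = 0.000332) and LRPPRC. LRPPRC, which stabilises mitochondrial messenger RNAs and whose loss is known to lower complex IV, had 2532, 2268 and 2303 normalized counts in siADAMTS12 libraries, against 5812, 5221 and 5041 in siCTL libraries. Its log2 fold change was -1.18 ± 0.07 (adjusted p = 5.76e-07), below that of every member, and its 3′ UTR holds the seed match. The match also stands in the 3′ UTR of list genes that did not fall, such as COX18. For complex V, 1 of 3 rose, ATPAF1 (log2 fold change 0.27, adjusted p = 0.0147). The ATPAF1 call was lost without siCTL replicate 1 (adjusted p = 0.0537), and the TACO1 call without any one library other than siADAMTS12 replicate 2 (0.0510 to 0.0920). With the replicate block TTC19 of the complex III list also fell (log2 fold change -0.19, adjusted p = 0.0278) and COX18 of the complex IV list also rose (0.24, adjusted p = 0.0374).

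Among subunits and electron carriers whose symbols fall outside the rule, NDUFAB1, CYC1 and CYCS, none passed. NDUFAB1, the acyl carrier protein of complex I, came nearest (1815 ± 111 in siADAMTS12 and 1577 ± 86.2 in siCTL libraries, log2 fold change 0.20, adjusted p = 0.0534). It passed with the replicate block (adjusted p = 0.0162) and when siADAMTS12 replicate 2 (0.0355) or siCTL replicate 1 (0.0435) was left out. Of the 13 subunits encoded in mitochondrial DNA, MT-ND1 of complex I fell, with 21754, 32996 and 29208 normalized counts in siADAMTS12 and 39845, 48983 and 56086 in siCTL libraries (log2 fold change -0.79, adjusted p = 0.00244). The other 12 did not pass, and the list had a median log2 fold change of -0.16. With the replicate block 4 of the 13 fell, the additional ones being MT-ND3 (log2 fold change -0.35, adjusted p = 0.0014), MT-ND4L (-0.28, adjusted p = 0.00256) and MT-ND2 (-0.28, adjusted p = 0.028). Without siCTL replicate 1, 3 fell, MT-ND1, MT-ND3 (adjusted p = 0.0484) and MT-ND4L (0.0376). Among 14 citric acid cycle enzymes, SUCLG2 fell (log2 fold change -0.41, adjusted p = 0.000874) and none rose, and OGDH also fell without siADAMTS12 replicate 2 (-0.24, adjusted p = 0.0235).

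In ubiquinone synthesis, which supplies the electron carrier between complexes I, II and III, 3 of 11 genes rose and 1 fell. PDSS1 and PDSS2, the subunits of the enzyme that makes the ubiquinone side chain, both rose (log2 fold changes of 0.47 and 0.41, adjusted p = 0.00514 and 0.0174), as did COQ4 (0.28), and COQ8A fell (-0.37). Leaving out 1 library ended the calls of PDSS2 (adjusted p = 0.0698 without siADAMTS12 replicate 1 and 0.0720 without siCTL replicate 3), COQ4 (0.0856 without siADAMTS12 replicate 3 and 0.0741 without siCTL replicate 3) and COQ8A (0.0549 without siADAMTS12 replicate 3), and with the replicate block COQ8B also rose (0.24, adjusted p = 0.0477). Of 14 regulators of mitochondrial biogenesis, TFB1M, a methyltransferase of the mitochondrial ribosomal RNA, rose and none fell. It had 454, 474 and 453 normalized counts in siADAMTS12 libraries, against 189, 157 and 178 in siCTL libraries (log2 fold change 1.4 ± 0.10, adjusted p = 2.58e-06). ESRRA also rose with the replicate block (0.29, adjusted p = 0.019) and without siADAMTS12 replicate 2 (0.0151) or siCTL replicate 1 (0.028), and POLRMT without siADAMTS12 replicate 2 (0.0369), so that this list had 1 to 3 risers over the fits without 1 library.

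The list of mitochondrial ribosomal proteins, the machinery that makes the mitochondrially encoded subunits, had 79 rows, of which 5 rose (6.33%) and 15 fell (19%), against 11.5% and 15.5% of all genes. With the replicate block 7 rose and 17 fell, and without siCTL replicate 1 only 3 rose. The symbol pattern behind this list also takes 2 rows that are no ribosomal protein, MRPS30-DT and MRPL20-AS1. Among the risers is the antisense RNA MRPL20-AS1 (adjusted p = 0.0438), whose call was lost without any one library other than siADAMTS12 replicate 3 (0.0656 to 0.133). MRPS5 had 1149, 1291 and 1251 normalized counts in siADAMTS12 libraries, against 2791, 3131 and 3154 in siCTL libraries (log2 fold change -1.30, adjusted p = 3.21e-07), and its 3′ UTR holds the seed match. MRPL51 (-0.69, adjusted p = 1.84e-05) and MRPS18B (-0.62, adjusted p = 0.000158) fell without a match in the 3′ UTR. In the assembly factor lists, NDUFAF4, NDUFAF5, SDHAF2, COX18, COX20 and CMC2 held a 3′ UTR match and did not fall. The same held for ESRRA, YY1, PPARGC1A, NRF1, MRPS14, MRPS11 and MRPL42 in the other lists. Among the matched genes of these lists, LRPPRC and MRPS5 alone fell. Over all genes searched, 35.8% of those with a 3′ UTR match fell. The part of the match in any of these values was not tested.

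The calls of NDUFB10, NDUFA1, NDUFB9, NDUFA5, NDUFS1, COX4I1 and ATP5MC1 passed in each of 14 alternative settings run. The count of members that rose depended on the scaling. With columns rescaled to the same total, which moved the median of all genes by 0.12 on the log2 scale, 16 members rose and 3 fell, where 24.7% of all genes rose and 9.89% fell. Relative to the median of all genes the members' median was 0.01 under that scaling and 0.01 as deposited.

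**Figure D5:**
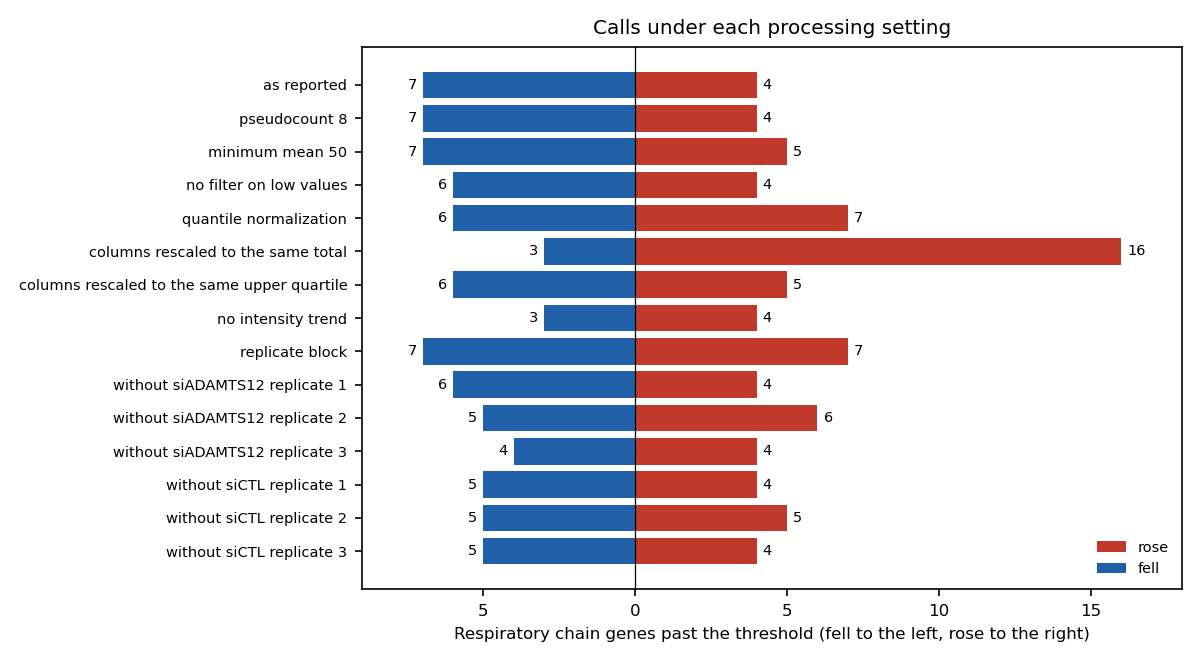
Number of members past an adjusted p of 0.05 under each processing setting, fallen genes to the left and risen genes to the right, out of those of the 83 that each setting tested. The bars run from 4 to 16 risen and from 3 to 7 fallen, and the longest red bar, 16, belongs to columns rescaled to the same total.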

How the data were processed

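Poly(A) RNA of 3 siADAMTS12 and 3 siCTL libraries of LX-2 cells was sequenced from stranded libraries. Alignment and counting tools named in the submitters' processing notes are STAR, HTSeq and DESeq2, with the build GRCh38. Which annotation and strand setting were used is not given in the sources used here. In the deposited table each value is a score, namely counts that the authors normalized and gave as whole numbers, per the file name. The depth behind them is unknown and no count model was fitted. All 6 columns match a sample, and 0 columns were unmapped.

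Genes with a mean of at least 10 (15637 of 60669) were fitted as log2(value + 1) with limma 3.58.1 in R 4.3.3 (lmFit, eBayes with intensity trend, group as the only term, 2-sided, Benjamini-Hochberg, threshold 0.05). The pseudocount of 1 understates fold changes of low genes. Members and lists were chosen with earlier results of these data known. Named are the called members, the highest member of each complex, of a complex with no called member the one with the smallest p, isoform pairs, up to 3 called genes per list (or the one with the smallest p), ADAMTS12 and the members nearest to the minimum. Other names, among them NDUFS7, ATP5IF1, the members with a seed match and those that share transcript bases, were added after values were seen.

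Deviations of same-numbered libraries from their group means correlated at 0.37, 0.13 and 0.13 across genes, against -0.19 to 0.06 for other pairs. Deviations cancel within a group, so high values for same-numbered libraries partly force low ones for other pairs. Replicate 1 stood out, whereas the 0.13 of replicates 2 and 3 lay close to the 0.06 of the highest other pairs. The rule that every pair exceeds 0.1 was met, the source being these data and not the labels, so a fit that blocks on the replicate number is given beside the counts and calls that it changes. On simulated data of 15637 genes in 10 draws, the fit called 77.8% of genes changed by 0.5 on the log2 scale, 91.1% at 1 and 100% at 2. Of all its calls there, 5.6% (106 of 1892) were false. The simulation changed only a small share of genes, gave every gene the same dispersion and had no replicate structure. In these data 27% of genes were called and same-numbered libraries correlated, so the simulated shares need not hold for them. Transcripts and 3′ UTRs (at least 30 bases) come from GENCODE 29, 1 transcript per gene, and promoters from RefSeq by symbol. Python 3.11.15, numpy 2.4.6, pandas 2.3.3, scipy 1.17.1 and matplotlib 3.10.9 were used. Some members are not reported by name here.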

Additional observations from a re-analysis of the deposited data

How the results depend on the processing

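Each result was recomputed with a pseudocount of 8, a minimum mean of 50, no filter, quantile normalization, columns rescaled to the same total or upper quartile, no intensity trend, a replicate block, and without each library. No called value turned its direction. With columns rescaled to the same total, 3868 genes rose and 1546 fell in all. Among members 16 then rose and 3 fell, with 8 rises in complex I, 1 in complex III, 3 in complex IV, 4 in complex V, and 0 falls in complexes II and III. In the surrounding lists 40 then rose and 12 fell. Quantile normalization gave 7 member rises (4 in complex I, 2 in complex V), as did the replicate block (7, 4 and 2). Without the intensity trend 3 members fell, 0 of them in complexes II and III. The fall in complex III was also lost (0) without a filter, under quantile normalization and under upper-quartile rescaling. List rises were 21 under upper-quartile rescaling and 20 under the block. The members' median log2 fold change was 0.0733 under quantile normalization, 0.142 at the same total and 0.0615 at the same upper quartile. Without each library in turn, 4 to 6 members fell, 1 to 2 in complex II and 0 to 0 in complex III, where 0 to 1 rose, 8 to 19 list genes rose, and the median lay between -0.0208 and 0.0459. A seed match to guide bases 2 to 7 stood in the 3′ UTR of 17 members, an 8-mer in 3, and the 7-mer anywhere in the transcript (added after seeing the data) in 12. The causes of these changes were not tested. Raw counts behind each value are unknown, which limits the genes with low values, such as NDUFA7 and NDUFA4L2.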
